A study of Mus musculus with 2 samples.

Results

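Ucma-positive chondrocytes made up 3164 of the 23816 cells called in single-cell libraries from 2 male wildtype C57BL/6J mice, or 13.3% of them. They were chosen by their own counts: a cell needed at least 2 unique molecular identifiers (UMIs, each standing for 1 captured RNA molecule) of Ucma, at least 1 of Cnmd and 1 of Col2a1, at most 1 of Col10a1 and at most 2 of Prg4. Mouse 1 gave 2000 such cells among 14136 (14.1%, exact Clopper-Pearson 95% interval 13.6 to 14.7) and mouse 2 gave 1164 among 9680 (12.02%, 11.4 to 12.7). The tissue is labelled olfactory epithelium, no age is given in the labels, and there is 1 library and 1 untreated animal behind each set of values. The intervals and count limits given here cover counting error only. Cells held medians of 3908.5 UMIs in mouse 1 and 5199 in mouse 2, and the Ucma chondrocytes held 7128.5 and 11023.5 UMIs and 2630.5 and 3129 genes.

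Ucma encodes the upper zone of growth plate and cartilage matrix associated protein, also called Gla-rich protein, a small secreted protein whose glutamates are carboxylated by a vitamin K-dependent enzyme so that it binds calcium. Cartilage is a matrix of type II, IX and XI collagen and the proteoglycan aggrecan, laid down by chondrocytes under the transcription factor Sox9. In growth plates, chondrocytes pass from resting and dividing states to enlarged, hypertrophic cells that make type X collagen, whereas the cells of joint surfaces make the lubricant Prg4. Col2a1 codes for type II collagen and Col9a1 for a type IX collagen chain. Cnmd (chondromodulin) is an inhibitor of vessel growth, Snorc a membrane proteoglycan of cartilage, and Ibsp (bone sialoprotein) an acidic protein known from mineralizing bone and hypertrophic cartilage.

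Ucma defines the cells, and among the genes that were higher in those with more Ucma, Ibsp differed most, so the 250 bases before their RefSeq start sites (GRCm38.p6, plus strand, chr2:4975872-4976121 for Ucma and chr5:104299037-104299286 for Ibsp) are shown, with capitals marking a match.
Ucma: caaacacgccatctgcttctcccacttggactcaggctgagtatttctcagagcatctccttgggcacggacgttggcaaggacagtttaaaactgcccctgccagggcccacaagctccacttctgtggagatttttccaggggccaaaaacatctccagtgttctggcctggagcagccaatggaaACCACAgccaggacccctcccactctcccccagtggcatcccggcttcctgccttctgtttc
Ibsp: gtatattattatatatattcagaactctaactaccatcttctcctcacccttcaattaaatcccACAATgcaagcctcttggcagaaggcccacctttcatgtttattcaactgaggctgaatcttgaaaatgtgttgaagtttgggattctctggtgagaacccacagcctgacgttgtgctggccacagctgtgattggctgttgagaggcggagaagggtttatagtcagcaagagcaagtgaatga
The motifs searched, on both strands, were ACCACA (a core Runx site) and ACAAT and ACAAAG (core Sox sites), none of which contains another. The Ucma window held ACCACA, 62 bases before the start, and the Ibsp window held ACAAT, 186 bases before it. The windows of Cnmd and Col9a1 held no match. Such short motifs are common: of 32851 promoters of this length, 14.05% held ACCACA, 27.66% ACAAT and 16.46% ACAAAG.

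The cells carried the markers of cartilage. The values of the genes in the rule and of the 3 further marker genes in the label chose or named the cells, so they are given as a description with no test. Levels are CPM, the UMI counts of a gene in the summed cells of a mouse, scaled so that every sum of cells has the same total. Ucma stood at 1171 CPM in the Ucma chondrocytes of mouse 1 and 1417 in those of mouse 2, and Col2a1 at 6848 and 7330 CPM. Cnmd stood at 2098 and 2823 CPM, Snorc at 2025 and 2719 CPM, Col9a1 at 525 and 505 CPM and Ibsp at 293 and 310 CPM. The 5 chondrocyte markers Acan, Sox9, Col11a2, Matn3 and Hapln1 were all above 10 CPM and summed to 5047 and 4481 CPM. Mgp, the matrix Gla protein that keeps cartilage from calcifying, reached 19075 and 30925 CPM. Both mice thus showed the same set of cartilage genes, with Mgp, Cnmd and Snorc higher in mouse 2.

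Per cell, Ucma had a median of 6 UMIs in mouse 1 (quartiles 3 and 12, highest 80) and 11 UMIs in mouse 2 (5 and 23, highest 106). Cells at the lower limit of 2 Ucma UMIs were 18% of the Ucma chondrocytes in mouse 1 and 9.54% in mouse 2. Those 360 and 111 cells had 3698 and 3172 CPM of Col2a1 and 3156 and 2653 CPM of Col1a1, a collagen of bone and fibrous tissue. Just outside, the 513 and 167 cells with 1 Ucma UMI had 2936 and 2718 CPM of Col2a1 and 4414 and 5637 CPM of Col1a1. At the Prg4 limit, the 212 and 119 cells with 2 Prg4 UMIs had 7907 and 8435 CPM of Col2a1, and the 131 and 77 cells with 3 had 6985 and 8285 CPM. At the Col10a1 limit the step in Cytl1, a secreted protein of cartilage, was between 12105 and 8150 CPM in the cells with 1 Col10a1 UMI and 14252 and 18468 CPM in the 42 and 30 cells with 2.

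The rule took about as many Ucma-positive cells as it left. In mouse 1, 4207 cells had at least 2 Ucma UMIs, of which 47.5% were Ucma chondrocytes, and 1434 of the others were kept out by Prg4 alone and 259 by Col10a1 alone. In mouse 2 the numbers were 2707 cells, 43.0%, 999 cells and 229 cells.

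RNA of cartilage was also present outside cartilage cells. Barcodes holding 50 UMIs or fewer carry RNA free of cells, and in them Ucma stood at 667 and 728 CPM, Mgp at 12362 and 16279 CPM and Prg4 at 575 and 449 CPM. Among the 285 and 142 cells with at least 2 UMIs of the leukocyte gene Ptprc (median 4620 and 5596.5 UMIs), 18.2% and 10.6% had a Ucma UMI, 7.72% and 4.93% had at least 2, and 2.46% and 2.11% met the whole rule. Col2a1 had a UMI in 48.1% and 47.9% of these leukocytes and Cnmd in 22.1% and 17.6%. A single UMI of Ucma, Col2a1 or Cnmd can thus be background. The rule nevertheless accepts 1 UMI of Col2a1 and of Cnmd, and the Prg4 and Col10a1 gates described below accept 1 of Col2a1. Scrublet called 0 doublets in either mouse and so did not work here; alternatives below leave out the highest doublet scores. The libraries shared 483 cell barcodes, of which 77 and 83 were Ucma chondrocytes and 24 were so in both mice.

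Markers of most other cell types were low in the Ucma chondrocytes, but those of fibroblasts were not. Their 5 olfactory neuron markers summed to 1.95 and 3.21 CPM, with 2 of the 5 at 0 in each mouse, and these markers were also near 0 in the remaining unselected cells (4.78 and 5.03 CPM), so the defining neurons of the labelled tissue are nearly absent from the called cells. Leukocyte markers summed to 64.5 and 84.4 CPM and endothelial markers to 38.9 and 24.4 CPM. The 5 fibroblast markers summed to 7908 and 6769 CPM, all of them above 10 CPM, against 40674 and 36930 CPM in cells gated as fibroblasts. That gate was set on the fibroblast genes Pdgfra, Dcn and Lum, which are among the 5 markers. The 5 osteoblast markers summed to 1834 and 1366 CPM, against 16179 and 16569 CPM in the fibroblast gate. Of these only Col1a1 reached 10 CPM in the Ucma chondrocytes, and Bglap, Bglap2, Sp7 and Dmp1 did not. Erythroid markers differed between the mice, at 244 and 10.9 CPM.

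**Figure D1:**
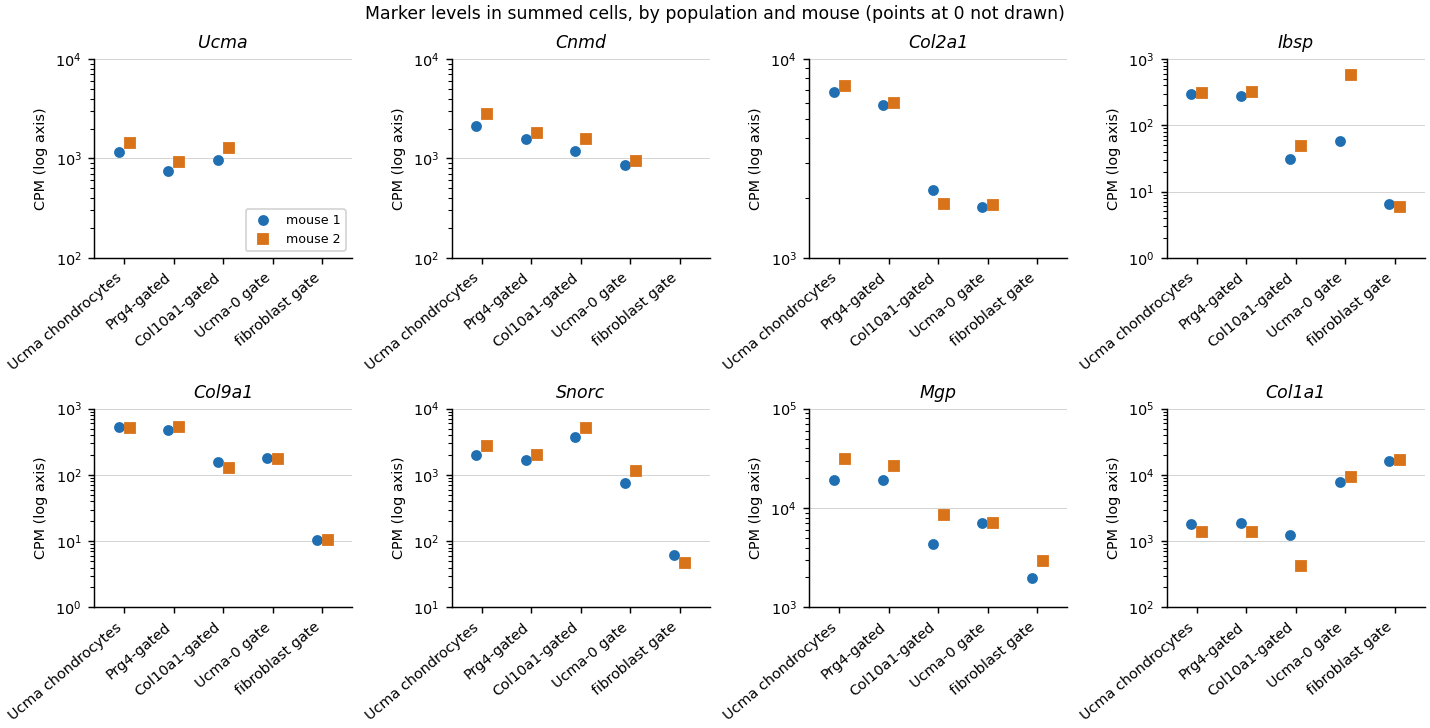
Levels (CPM, log axis) of 6 marker genes, Mgp and Col1a1 in the summed cells of each mouse, for the Ucma chondrocytes (left) and 4 other gated populations; circles are mouse 1, squares mouse 2, and values of 0, set by the gates, are not drawn. Ibsp sits at 293 and 310 CPM in the Ucma chondrocytes, at a like level in the Prg4-gated cells, and at 30.7 and 48.1 CPM in the Col10a1-gated chondrocytes.

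Ibsp was the most unevenly spread of the marker genes. Only 24.7% of the Ucma chondrocytes of mouse 1 and 24.2% of those of mouse 2 had an Ibsp UMI, against 4.21% and 2.11% of the leukocytes. The 5% of Ucma chondrocytes with the most Ibsp, 100 and 59 cells, held 71.5% and 72.6% of its UMIs, and 50% of the UMIs lay in 45 and 30 cells. For comparison, the top 5% for Ucma held 20.4% and 19.6% of the Ucma UMIs, and the top 5% for Mgp held 25.7% and 21.8% of the Mgp UMIs. Ibsp thus marked a minority within the population rather than its typical cell. The same was seen in the Prg4-gated cells defined below, so this spread was not particular to the Ucma chondrocytes. There 28.8% and 29.4% had an Ibsp UMI, and the top 5% held 65.3% and 61.4% of its UMIs.

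To compare cells at equal depth, the 1535 and 1104 Ucma chondrocytes with at least 4000 UMIs were thinned to 4000 UMIs each and divided by their Ibsp count. The groups come from a measured gene, so these values are a description with no test. In mouse 1, 167 cells (10.9%) had 3 or more Ibsp UMIs and 1216 (79.2%) had none; in mouse 2, 115 (10.4%) and 890 (80.6%). Among 3013 genes that reached 50 CPM in both mice, 21 were over 2-fold higher and 16 over 2-fold lower in the Ibsp-high cells of each mouse, with 10 CPM added to both sides.

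Among the higher genes the one that differed most was Spp1 (osteopontin), like Ibsp a secreted acidic phosphoprotein of mineralized tissue. It stood at 808 and 474 CPM in Ibsp-high cells, against 185 and 105 CPM in cells without Ibsp. Col2a1 was 12814 and 13715 CPM in Ibsp-high cells, against 5403 and 5368 CPM without. The Ibsp-high cells were thus the richest in type II collagen in both mice. Penk, which encodes the opioid precursor proenkephalin, was 525 and 711 CPM in Ibsp-high cells, against 193 and 240 CPM. Kcnq5, a voltage-gated potassium channel, was 588 and 524 CPM, against 161 and 115 CPM. Itgbl1, an integrin-like secreted protein, was 409 and 589 CPM, against 130 and 140 CPM. Both mice gave the same order for each of these 3 genes, and Col12a1, Gpx3, Cgref1, Eml1, Cadm2, Cyp26a1 and Ltbp2 made up the rest of the top 12 with Col2a1 and Spp1.

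Some genes known from mineralization were near 0 in all these cells. Alpl, the tissue-nonspecific alkaline phosphatase that frees phosphate, stood at 10.48 and 4.35 CPM in Ibsp-high cells, against 6.58 and 6.74 CPM in cells without Ibsp. Phospho1, a phosphatase of matrix vesicles, had no UMI in Ibsp-high cells of either mouse. Col10a1, capped at 1 UMI by the rule, was 4.49 and 2.17 CPM in Ibsp-high cells, against 7.61 and 8.15 CPM. The bone and hypertrophy factor Runx2 was higher in Ibsp-high cells by 0.71 and 0.53 on the log2 scale, and the osteoblast factor Sp7 was 4.49 CPM in mouse 1 and 0 in mouse 2, against 0.617 and 1.97 CPM.

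Other genes were higher in cells without Ibsp. Krt16, a keratin, differed most, at 16.5 and 6.52 CPM in Ibsp-high cells, against 101 and 133 CPM in cells without Ibsp. Scd1, the desaturase that makes monounsaturated fatty acids, was 70.4 and 69.6 CPM in Ibsp-high cells, against 257 and 269 CPM in cells without Ibsp, and Elovl6, a fatty acid elongase, was 58.4 and 45.7 CPM, against 137 and 129 CPM. Eln (elastin) was 139 and 152 CPM in Ibsp-high cells, against 388 and 428 CPM. The adhesion molecule Icam1 was 165 and 167 CPM, against 439 and 421 CPM, and the complement gene C4b was 108 and 43.5 CPM, against 285 and 274 CPM. In every one of these genes the cells with 1 or 2 Ibsp UMIs lay between the other 2 groups. Snorc, in contrast, was 1734 and 2109 CPM in Ibsp-high cells, against 1945 and 2537 CPM, so the label's markers did not all follow each other.

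**Figure D2:**
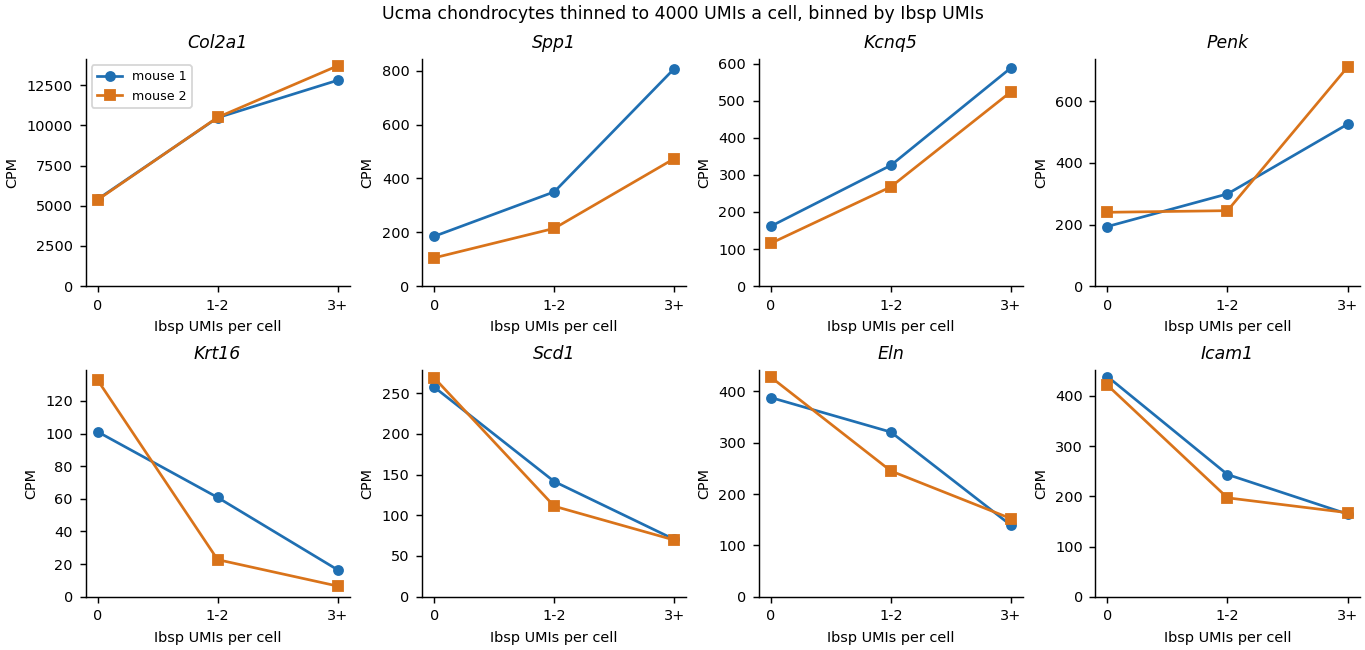
Levels (CPM) of 8 genes in Ucma chondrocytes thinned to 4000 UMIs, in cells with 0, 1 to 2, and 3 or more Ibsp UMIs; lines join the values of 1 mouse (circles mouse 1, squares mouse 2). The upper row is higher and the lower row lower in cells with Ibsp, in both mice.

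The same thinned cells were also divided by their Ucma count, again with no test, into 261 and 184 cells with 0 or 1 Ucma UMIs left after thinning, 801 and 483 with 2 to 5, and 473 and 437 with 6 or more. Of 3844 genes considered, 29 differed over 2-fold between the lowest and highest of these groups in both mice, 7 being higher and 22 lower with more Ucma. Of the 7 higher genes Ibsp differed most, at 138, 310 and 415 CPM over the 3 groups in mouse 1 and 92.4, 225 and 577 CPM in mouse 2. Its levels rest on few cells, since 50% of its UMIs in all Ucma chondrocytes lay in 45 and 30 cells. At the limit of the rule, without thinning, cells with 2 Ucma UMIs had 180 and 17.6 CPM of Ibsp. Those just outside, with 1 Ucma UMI, had 129 and 220 CPM, so mouse 2 went the other way there. Matn3 (matrilin-3, a linker of cartilage fibrils) gave 101, 165 and 252 CPM in mouse 1 and 67.9, 123 and 197 CPM in mouse 2. Spon1 (F-spondin) gave 75.7, 133 and 202 CPM, and 53.0, 78.2 and 146 CPM. Col2a1 gave 3768, 6085 and 9400 CPM, and 4045, 5376 and 9277 CPM. Each of these 4 genes stepped up through all 3 groups in both mice. Col9a1 did so too, at 377, 490 and 653 CPM in mouse 1 and 462, 520 and 617 CPM in mouse 2. Cnmd gave 1518, 1816 and 2722 CPM, and 2300, 2377 and 3144 CPM, and Fmod and Omd also stepped up in both mice. Not every cartilage gene did. The proteoglycan gene Acan gave 1485, 1556 and 1602 CPM in mouse 1 and 1573, 1420 and 1164 CPM in mouse 2. Cytl1, a secreted cartilage protein, gave 6028, 5716 and 6121 CPM, and 6534, 7785 and 7128 CPM. Mgp, whose product shares vitamin K-dependent carboxylation with that of Ucma, did step up in both mice, at 15886, 18030 and 23153 CPM, and 21035, 29664 and 38462 CPM.

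Elastin and leukocyte genes were among those that were lower with more Ucma. Eln gave 576, 358 and 226 CPM in mouse 1 and 721, 411 and 209 CPM in mouse 2. Enpp2 (autotaxin, which makes lysophosphatidic acid) gave 145, 87.1 and 48.1 CPM, and 202, 128 and 57.8 CPM. Irx3, a homeobox factor, gave 143, 111 and 57.6 CPM, and 140, 133 and 52.1 CPM. Vim (vimentin, an intermediate filament protein) was 464 and 667 CPM in the cells with the most Ucma and 1174 and 1560 CPM in those with the least. Cd74, H2-Aa and H2-Ab1, which present antigen in leukocytes, and Clec3b and Dpt, which fibroblasts express, were also among the 20 lowest, with Cd74 at 6.87 and 42.3 CPM in the cells with the most Ucma, against 55.6 and 226 CPM in those with the least. The part of RNA from other cells in this order was not tested. Sox9 had no steady direction, at 1294 and 741 CPM in the cells with the most Ucma, against 1315 and 946 CPM in those with the least. Snorc was 2363 CPM against 1649 CPM in mouse 1 and nearly level in mouse 2, at 2456 CPM against 2387 CPM.

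**Figure D3:**
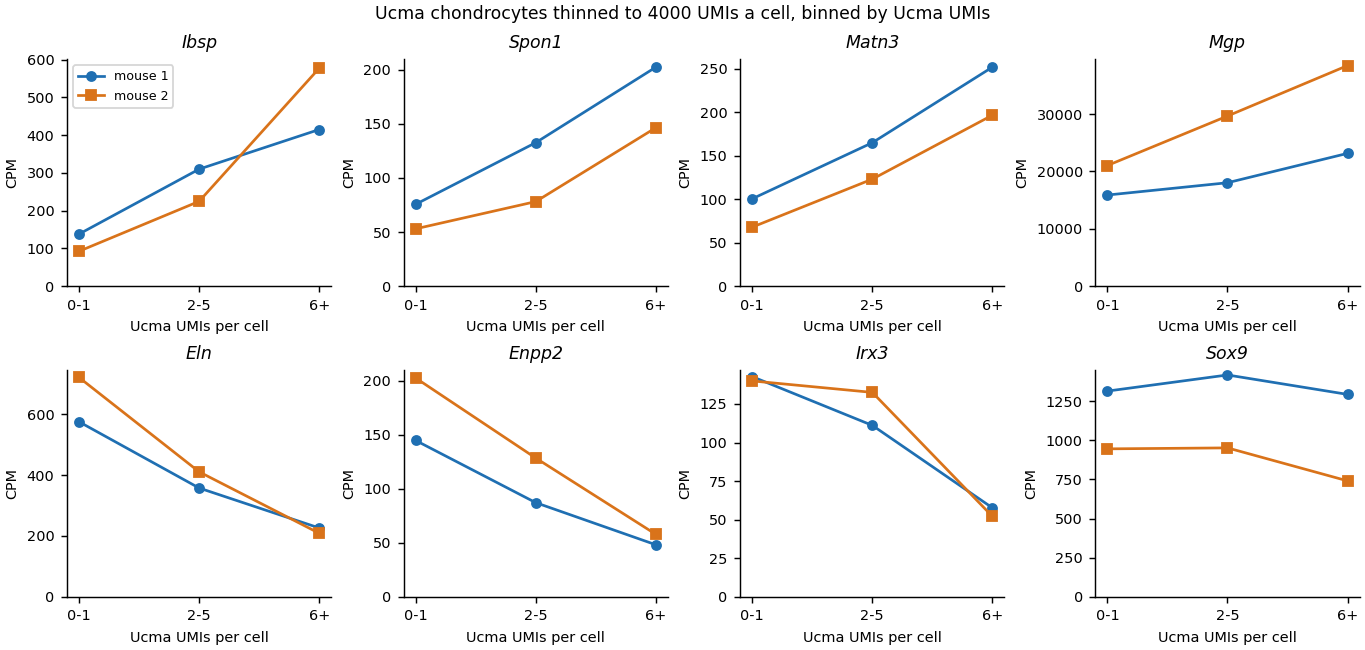
Levels (CPM) of 8 genes in Ucma chondrocytes thinned to 4000 UMIs, in cells with 0 to 1, 2 to 5, and 6 or more Ucma UMIs; lines join the values of 1 mouse (circles mouse 1, squares mouse 2). Ibsp, Spon1, Matn3 and Mgp step up with Ucma in both mice, Eln, Enpp2 and Irx3 step down, and Sox9 has no steady direction.

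Further gates gave populations to set the Ucma chondrocytes against: cells with at least 3 Prg4 UMIs, at least 1 of Col2a1 and at most 1 of Col10a1 (Prg4-gated cells, 2330 and 1378), cells with at least 2 Col10a1 UMIs, at least 1 of Col2a1 and at most 2 of Prg4 (Col10a1-gated chondrocytes, 347 and 268), and cells that met the whole rule but had no Ucma UMI (the Ucma-0 gate, 1015 and 471). Cells were summed per mouse and tested with the quasi-likelihood test of edgeR, with the mouse as a block. The p-values were adjusted by Benjamini-Hochberg over the 20361 genes in the fit. Log2 fold changes, given ± standard error (SE), are positive where the Ucma chondrocytes were higher. Genes of the gates, of the label and those that overlap them stayed in the fit and the adjustment, but their results were dropped. The other 20347 genes are those counted here as tested. Only 2 mice stand behind each fold change, so the p-values rest on the spread shared by all the populations in the fit.

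Few genes separated the Ucma chondrocytes from Prg4-gated cells, which had to hold Col2a1 as well. Their gate set no limit on Ucma, and they too held it, at 742 and 928 CPM. Of the 2330 and 1378 Prg4-gated cells, 1434 and 999 met every condition of the Ucma rule except that on Prg4. For those cells the 2 gates differed by the Prg4 count alone, so the groups were alike in the rule's other genes by choice. Only 79 genes passed an adjusted p of 0.05 (0.388% of those tested), 31 of them higher in the Ucma chondrocytes (0.152%) and 48 lower (0.236%). Without the mouse as a block edgeR called 0 genes (522 at an unadjusted p under 0.05), and DESeq2 with the block called 157. Median depths were alike, at 7128.5 and 11023.5 UMIs in the Ucma chondrocytes against 7515 and 10508.5 UMIs in the Prg4-gated cells.

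Secreted modulators of Wnt and bone morphogenetic protein (BMP) signalling stood on both sides. Frzb, an inhibitor that binds Wnt ligands, had 64.4 and 82.1 CPM in Ucma chondrocytes, against 23.7 and 26.1 CPM in Prg4-gated cells (log2 fold change 1.57 ± 0.15, edgeR adjusted p = 0.00016). The related inhibitor Sfrp5 had 16.6 and 15.8 CPM, against 4.19 and 3.27 CPM (2.13 ± 0.37, edgeR adjusted p = 0.038), a call lost under 6 alternatives, DESeq2 size factors in the edgeR fit among them. Notum, which inactivates Wnt ligands, fell, at 125 and 143 CPM in Ucma chondrocytes against 219 and 230 CPM in Prg4-gated cells (-0.71 ± 0.14). These 3 were the called genes among 25 Wnt genes tested, where 0.388% of all genes were called. The median log2 fold change of the 25 was -0.04, against 0.00026 over all genes.

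Bmp2, a BMP ligand, had 344 and 237 CPM in Ucma chondrocytes, against 601 and 548 CPM in Prg4-gated cells (-1.001 ± 0.15, edgeR adjusted p = 0.0067). Chrdl1, a BMP antagonist, was the reverse, with 38.0 and 33.5 CPM against 15.1 and 12.4 CPM (1.41 ± 0.15, edgeR adjusted p = 0.00048). Bmper, which binds BMPs, also rose, with 81.5 and 79.2 CPM against 56.1 and 44.8 CPM (0.71 ± 0.13). These genes were chosen among the 79 called ones, all of which had the same direction in both mice, so their values are a description and no further test. Of the 51 growth factor genes tested only Chrdl1 and Bmp2 passed, where 0.388% of all genes did, and the median was -0.10.

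A pair of genes of lipid storage and synthesis was higher in the Ucma chondrocytes, though both calls were lost with cells thinned to 1000 UMIs and without the block, and that of Plin2 also with the stricter cartilage gate. Plin2, which coats lipid droplets, had 45.6 and 59.8 CPM, against 24.9 and 26.4 CPM in Prg4-gated cells (1.05 ± 0.17), and Scd1 had 248 and 305 CPM, against 160 and 185 CPM (0.71 ± 0.11). Spon1 had 144 and 108 CPM, against 84.8 and 52.0 CPM (0.92 ± 0.13), and the calcium-binding matrix protein Smoc2 had 1018 and 706 CPM, against 688 and 426 CPM (0.67 ± 0.13). Spon1 and Smoc2 were also higher in the Ucma chondrocytes with more Ucma, but that division shares its cells with this comparison. Prg4-gated cells also held less Ucma, so neither result is independent of the other. Lower genes included Ptn (pleiotrophin, a heparin-binding growth factor; -1.32 ± 0.15, 23.5 and 18.8 CPM against 60.6 and 47.4 CPM), Ecm1 (extracellular matrix protein 1; -0.89 ± 0.12, 117 and 100.1 CPM against 210.4 and 197 CPM) and the small proteoglycan Epyc (-1.79 ± 0.31, 1.75 and 2.41 CPM against 4.14 and 11.5 CPM). Creb5, a transcription factor of joint-surface cells, fell by 0.74 ± 0.14, but lost its call under 4 alternatives. Cp (ceruloplasmin) and Hps3 overlap on opposite strands and both passed as lower, so their reads may not be separable.

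Of 29 cartilage matrix genes tested, Chadl passed as higher and Epyc as lower, with a median of 0.12, and the call of Chadl was lost under 4 alternatives. None of the 18 mineralization genes, 17 vitamin K genes, 14 hedgehog and parathyroid hormone-related protein (PTHrP) genes or 36 chondrogenic factors passed, in a comparison in which 0.388% of all genes did, so that few calls or none would be met in lists of this size. Mgp, with 19075 and 30925 CPM against 19270.0 and 26679 CPM, had a fold change of 0.13 ± 0.23, and Sox9 one of -0.11 ± 0.14. Runx2 was nearest to a call, with 167 and 132 CPM against 120.3 and 83.6 CPM (0.60 ± 0.13, edgeR adjusted p = 0.064).

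**Figure D4:**
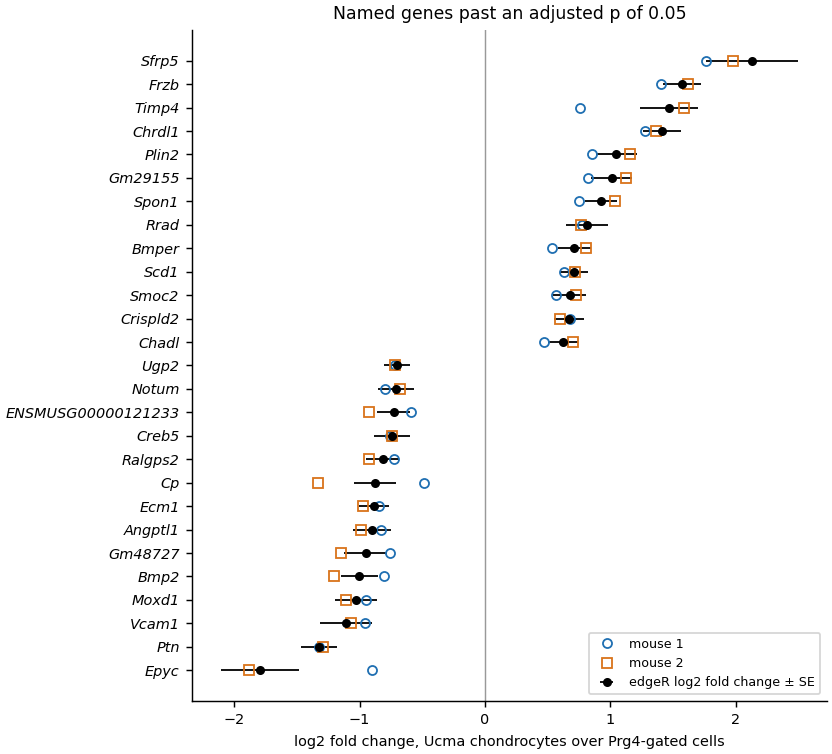
Log2 fold changes of Ucma chondrocytes over Prg4-gated cells for the named genes past an adjusted p of 0.05; black points with bars are edgeR estimates ± SE, and open circles and squares are the fold changes within mouse 1 and mouse 2 from CPM with 1 added. Frzb and Sfrp5 lie on the right and Bmp2, Ptn and Epyc on the left, and both mice lie on the same side of 0 for each gene drawn.

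Col10a1-gated chondrocytes differed far more. Of the genes tested, 2605 passed (12.8%), 1201 higher in the Ucma chondrocytes (5.9%) and 1404 lower (6.9%), and in 2604 of them the mice gave 1 direction. Without the block 750 passed, and with every cell thinned to 1000 UMIs 791 of 12168 genes tested passed. These cells were deeper, with medians of 10288 and 16438.5 UMIs, and they kept Ucma at 974.7 and 1270 CPM, whereas Col2a1 stood at 2199 and 1875 CPM and Snorc at 3736 and 5186 CPM. Type X collagen is known from hypertrophic cells, yet Mmp13, a collagenase of that stage, had no UMI in mouse 1 and 8 UMIs in mouse 2 in these cells, and Ihh, the hedgehog ligand made by prehypertrophic cells, had no UMI in either mouse. A count of 0 allows up to 0.786 and 0.675 CPM there. In the Ucma chondrocytes Ihh had 6 and 3 UMIs.

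The Ucma chondrocytes had more of several matrix and surface genes. Mgp had 19075 and 30925 CPM, against 4352 and 8584 CPM in Col10a1-gated chondrocytes (1.84 ± 0.24, edgeR adjusted p = 0.00057). Fmod (fibromodulin, which binds collagen fibrils) had 1490.0 and 1517 CPM, against 397 and 248.8 CPM (2.10 ± 0.18). Col12a1, a collagen that coats fibrils, had 485 and 390 CPM, against 42.7 and 17.5 CPM (3.79 ± 0.20). The chaperone Clu (clusterin) had 1846 and 2323 CPM, against 307 and 295 CPM (2.66 ± 0.17), and Thbs1 (thrombospondin-1), an inhibitor of vessel growth, had 628 and 759 CPM, against 92.3 and 70.4 CPM (2.99 ± 0.24). Apoe, the lipid carrier, had 3148 and 4230.5 CPM, against 782 and 1093 CPM (1.85 ± 0.16). All 6 genes were at least 2-fold apart. They were chosen among the 2605 called genes, of which 1189 were over 2-fold apart, so this is a description and no further test. Mgp was also abundant in free RNA, as given above, and the part of that RNA in its levels was not tested.

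Of the 29 cartilage matrix genes 5 rose and 11 fell, where 5.9% of all genes rose and 6.9% fell. Their median was -0.17, against 0.027 over all genes. The genes that rose were Fmod, Cilp2, Vit, Matn4 and Col11a2, the last a type XI collagen chain with 1413 and 1312 CPM against 605 and 644 CPM (0.99 ± 0.12). Among those that fell were Cytl1, with 6084 and 7567 CPM in Ucma chondrocytes against 20800 and 27494 CPM in Col10a1-gated chondrocytes (-1.95 ± 0.23), the link protein Hapln1 (-0.83 ± 0.13), chondroadherin Chad (-0.67 ± 0.14) and matrilin-1, Matn1 (-3.17 ± 0.45). The 3 type VI collagen genes Col6a1, Col6a2 and Col6a3 fell as well, by 0.60, 0.61 and 0.76. Col9a2, Col9a3, Col11a1 and Comp did not pass.

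Eln fell, with 382 and 376 CPM in Ucma chondrocytes, against 2338 and 2653 CPM in Col10a1-gated chondrocytes (-2.83 ± 0.16, edgeR adjusted p = 3.6e-08). Enpp2 had 95.0 and 125 CPM, against 606 and 761 CPM (-2.77 ± 0.22). Both of these were also lower in the Ucma chondrocytes with more Ucma, a division that shares its cells with this comparison. Other large falls were those of Alox12, a lipoxygenase (-4.03 ± 0.49), and Nes, the filament protein nestin (-3.77 ± 0.26). Large rises were those of Gpha2, a glycoprotein hormone subunit (4.00 ± 0.46, 138 and 140.2 CPM against 6.81 and 8.999 CPM), and Ltbp2, a protein of elastic microfibrils (3.94 ± 0.25). Whether the counting used strand is not stated, so the values of named genes that overlap another gene on the opposite strand are uncertain. Among them are Gpha2 (Ppp2r5b), Ltbp2, Thbs1, Eln, Enpp2, Fgfr3, Igfbp7 (Polr2b), Notum, Pth1r (Myl3), Smpd3 (Prmt7), Gas6 (Tmem255b), Chadl (L3mbtl2), Hhip, Irx3 and Runx2. The same holds for Cdkn1c, Epyc, Furin, Anxa2, Slc20a1, Shox2 (Rsrc1), Sox8, Sox5, Sox4, Col9a3 (Tcfl5), Gli1, Phospho1 (Abi3) and Il1b.

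Sox9 fell, with 1319 and 936 CPM in Ucma chondrocytes against 2031 and 1795 CPM in Col10a1-gated chondrocytes (-0.92 ± 0.14, edgeR adjusted p = 0.00034). Of the 36 chondrogenic factors tested 5 rose and 10 fell, with a median of -0.13, where 5.9% of all genes rose and 6.9% fell. Those that fell with Sox9 were Sox8, Foxa2, Foxa3, Irx3, Irx5, Epas1, Shox2, Wwp2 and Mef2c. Without the block the calls of Sox9, Sox8, Foxa2, Irx3, Epas1, Shox2, Wwp2 and Mef2c were lost. With cells thinned to 1000 UMIs those of Foxa3, Irx5, Epas1, Shox2, Wwp2 and Mef2c were lost. Runx2 rose, with 167 and 132 CPM against 92.5 and 52.2 CPM (0.96 ± 0.14), a call lost without the block. The others that rose included Sox4 (2.57 ± 0.26), Alx1 and Msx1, the call of Alx1 being lost under 4 alternatives and that of Msx1 under 5. Sox5 and Sox6, the partners of Sox9, did not pass (-0.26 ± 0.12 and 0.16 ± 0.13).

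The hedgehog and PTHrP list, through which growth plates time hypertrophy, had 4 genes that rose and 2 that fell among 14, where 5.9% of all genes rose and 6.9% fell. Pth1r, the PTHrP receptor, had 33.1 and 36.4 CPM in Ucma chondrocytes, against 7.34 and 13.0 CPM in Col10a1-gated chondrocytes (1.68 ± 0.38, edgeR adjusted p = 0.023), a call lost with a stricter cartilage gate and without the block. Smo, the hedgehog signal transducer, had 53.1 and 60.5 CPM, against 30.1 and 28.1 CPM (0.84 ± 0.15). Hhip, which traps hedgehog ligand, had 5.51 and 7.87 CPM, against 0.786 and 1.12 CPM (2.65 ± 0.55), a call lost with cells thinned to 1000 UMIs. The co-receptors split, Boc rising by 0.79 ± 0.13 and Cdon falling by 0.78 ± 0.12. Both calls were lost without the block, and that of Cdon also with cells thinned to 1000 UMIs. Disp1, which releases the ligand, fell, a call lost without the block. The hedgehog target Gli1 did not pass (2.27 and 1.90 CPM against 1.57 and 0.45 CPM).

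The vitamin K list, which holds the enzymes that make Gla residues and the proteins that carry them, had 4 genes that rose and 2 that fell among 17, with a median of 0.17, beside 5.9% and 6.9% over all genes. Besides Mgp, those that rose were Gas6, a Gla-containing ligand of receptor kinases (0.92 ± 0.14), Vkorc1l1, a vitamin K epoxide reductase (0.66 ± 0.15), and Prrg3, a membrane Gla protein (1.38 ± 0.36), whose call was lost under 3 alternatives. The call of Gas6 was lost with cells thinned to 1000 UMIs and without the block, and that of Vkorc1l1 without the block. Ggcx, the carboxylase itself, had 23.7 and 15.0 CPM in Ucma chondrocytes, against 21.8 and 13.5 CPM (0.01 ± 0.15), and the reductase Vkorc1 61.0 and 71.6 CPM, against 50.8 and 56.7 CPM (0.17 ± 0.12). Furin, the protease that trims Gla proteins, fell by 0.65 ± 0.12, a call lost with cells thinned to 1000 UMIs and without the block. The fall of Bglap (osteocalcin) rested on mouse 2, where Col10a1-gated chondrocytes had 76.7 CPM and those of mouse 1 had 3.67 CPM, and its call was lost under 8 alternatives.

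Of 18 mineralization genes 2 rose and 5 fell, with a median of -0.27, beside 5.9% and 6.9% over all genes. Mgp and Fetub, both inhibitors of mineral growth, were the ones that rose. Nt5e, the ectoenzyme that makes adenosine, had 206 and 161 CPM in Ucma chondrocytes, against 526 and 420 CPM (-1.50 ± 0.13), Smpd3, a sphingomyelinase needed for skeletal mineralization, had 5.51 and 5.47 CPM, against 19.9 and 26.8 CPM (-2.21 ± 0.20), and the phosphate transporter Slc20a1 had 15.1 and 11.4 CPM, against 24.9 and 31.5 CPM (-1.25 ± 0.20). Anxa2 and Bglap also fell. The calls of Fetub, Smpd3 and Slc20a1 were lost with cells thinned to 1000 UMIs, and those of Fetub and Anxa2 without the block. Alpl, Enpp1, Ank and Spp1 did not pass.

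Signalling and transport genes moved in both directions. Of 51 growth factor genes 19 rose and 6 fell, with a median of 0.39. Igfbp7, which binds insulin-like growth factors, had 416 and 372 CPM, against 133 and 77.8 CPM (1.80 ± 0.15), and Igf1 and Chrdl1 rose too, whereas Fgfr3, a receptor that restrains cartilage growth, had 106 and 133 CPM in Ucma chondrocytes against 315 and 416 CPM (-1.74 ± 0.12). Of 25 Wnt genes 9 rose and 3 fell. Over all genes 5.9% rose and 6.9% fell. Frzb was among those that fell here (-1.10 ± 0.15), at 64.4 and 82.1 CPM in Ucma chondrocytes against 116 and 172 CPM in Col10a1-gated chondrocytes, and Notum rose by 1.04 ± 0.15. The call of Frzb was lost without the block. Of 25 ion and water transport genes 4 rose and 12 fell: the water channel Aqp1 had 92.8 and 93.1 CPM, against 392 and 396 CPM (-2.21 ± 0.11), and the mechanically gated channel Piezo2 had 129 and 113 CPM, against 25.2 and 17.998 CPM (2.37 ± 0.18). Of 22 proliferation genes 1 passed, a share below the 12.8% over all genes: Cdkn1c, an inhibitor of cell division, at 612 and 567 CPM against 134 and 95.4 CPM (2.25 ± 0.14).

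**Figure D5:**
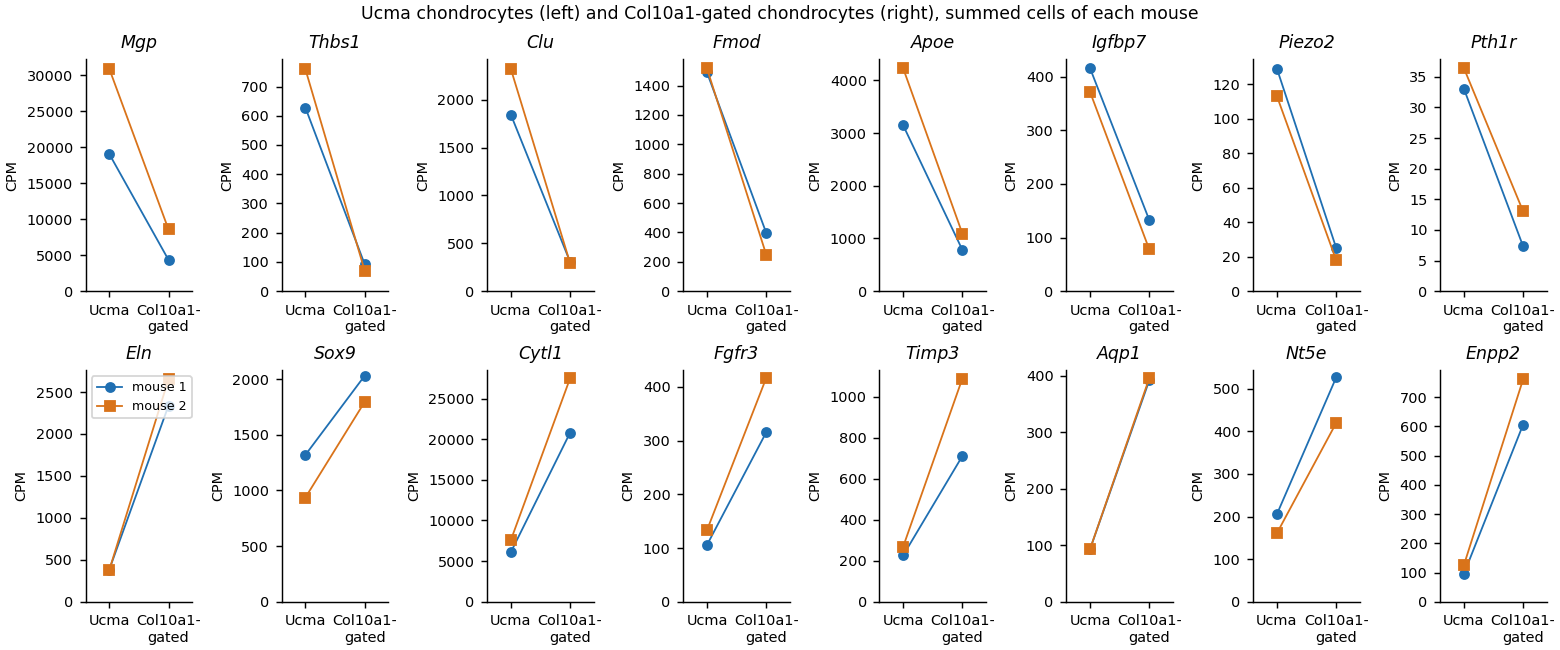
Levels (CPM, linear axes from 0) of 16 genes in Ucma chondrocytes (left in each panel) and Col10a1-gated chondrocytes (right), summed per mouse; lines join the values of 1 mouse (circles mouse 1, squares mouse 2). The upper row holds genes that were higher in Ucma chondrocytes and the lower row genes that were lower, and the 2 mice gave 1 direction for each.

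The Ucma-0 gate was a mixed group and shallower, with medians of 3235 and 5714 UMIs. Its fibroblast markers summed to 17250 and 17694 CPM and its leukocyte markers to 731 and 502 CPM, and its Ibsp level in mouse 2, 577 CPM, came mostly from 1 cell with 1633 UMIs. Against it 4061 genes passed (20%), 1998 higher in Ucma chondrocytes (9.82%) and 2063 lower (10.1%), but 1483 passed without the block, and 277 of 20031 tested where both populations needed at least 5 Col2a1 and 2 Cnmd UMIs, an alternative added after the data were seen. Lymphatic and neutrophil genes such as Lyve1 (-4.71 ± 0.49) and Ltf (-5.92 ± 1.33) led the fall in the Ucma chondrocytes. The part of these other cells in the comparison was not tested.

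Under that stricter gate, which left 1690 and 1039 Ucma chondrocytes and 272 and 121 cells without Ucma, several cartilage genes kept their call. Matn3, at 197 and 168 CPM in Ucma chondrocytes against 34.6 and 23.3 CPM in the Ucma-0 gate, had a log2 fold change of 2.88 ± 0.29, and 1.92 under the stricter gate. Mgp had 1.99, and 1.23 under the stricter gate, Omd (osteomodulin) 2.25 and 1.65, Spon1 1.55 and 1.36, and Smoc2 2.06 and 1.04. Sox9 had 1.00, but 0.10 under the stricter gate, where its call was lost. Matn3, Spon1, Smoc2 and Mgp were also higher in the Ucma chondrocytes with more Ucma, a division that shares its cells with this comparison.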

How the data were processed

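Single cells of labelled olfactory epithelium from 2 male mice were measured in 1 droplet library per mouse. The deposited tables hold whole-number counts per gene and barcode, not normalized by the authors, and are treated as UMI counts although no label says so. STAR, Cell Ranger 7.0.0 and GRCm39 are named per the submitters' processing notes; no source used here gives their roles or the annotation release. The tables list 575908 and 610731 barcodes with 95844802 and 86049057 UMIs; cells needed at least 1000 UMIs, 300 genes and at most 15% mitochondrial UMIs. The members and gene lists were chosen with earlier results of these data known.

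Counts of 12 sums (2 mice, 6 disjoint gates, including a fibroblast gate and all other cells) were tested with edgeR 4.0.16 (TMM, low-count filter, mouse as a block because each mouse gave every sum, 5 residual degrees of freedom) in R 4.3.3, first tested on simulated data. Left out of counts were 17 gate or label genes and genes overlapping them. Named genes were, per comparison, the 10 largest changes in each direction past an adjusted p of 0.05 with at least 50 CPM in a population, up to 4 members of each list by p, and the mineralization, vitamin K, hedgehog and chondrogenic lists in full; others called in a list, and the genes of the Ibsp division, were chosen after their values were seen. Of 437 list genes 435 matched. Alternatives covered DESeq2 1.42.0, its size factors, depth, mitochondrial, Ucma and doublet limits, thinning, no filter, no block and single pairs; 3 were chosen after seeing the data (a stricter cartilage gate, no cell with blood or vessel UMIs, no barcode shared by the libraries). Promoters are from RefSeq, GRCm38.p6. Levels are not per length, so genes are not ranked against each other.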

Additional observations from a re-analysis of the deposited data

How the results depend on the processing

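The mean share of Ucma chondrocytes over the 2 mice, 13.1% ± 1.5 (SD), was 15.6% among cells of at least 2000 UMIs, 15.8% with 1 Ucma UMI, 9.05% with at least 5, and 5.72% with the rule applied to cells thinned to 1000 UMIs; leaving out a mouse gave 12.02% to 14.1%. Without the replicate block, which pairs sums of the same mouse, calls were 0 against Prg4-gated cells, 750 against Col10a1-gated chondrocytes and 1483 against the Ucma-0 gate. Against Prg4-gated cells 79 calls became 157 with DESeq2, 214 with at least 5 Ucma UMIs, 166 without high doublet scores (27.1% higher in Ucma chondrocytes, against 39.2%), 367 with no filter on low counts and 835 with only the 2 populations compared; 75, 78, 76, 79 and 78 of the 79 were among them. Fewer of the 79 were shared with cells thinned to 1000 UMIs (28, of 77 calls), without cells with blood or vessel UMIs (60, of 115) and with the stricter cartilage gate (65, of 87). With cells thinned to 1000 UMIs there were 791 calls against Col10a1-gated chondrocytes and 1659 against the Ucma-0 gate. The share of calls higher in Ucma chondrocytes was 56.2% with no filter, against 46.1%, for Col10a1-gated chondrocytes, and for the Ucma-0 gate 35.3% without the block and 59.6% under the stricter gate, against 49.2%. The stricter cartilage gate left 277 calls against the Ucma-0 gate and turned 7 named genes to 0.75 (Il1b), 0.21 (Tyrobp), -0.17 (Nt5e), -0.16 (Ank), -0.0458 (Boc), 0.13 (Hmgb2) and 0.74 (Tnmd); Ngp became 0.24 without cells with blood or vessel UMIs, and Elane ranged over -6.51 to 0 with 1 mouse left out, the 0 being without mouse 2. The cause was not tested. Of 451 named results, those 9 reversed under some setting, and none of the 9 is against Prg4-gated cells or Col10a1-gated chondrocytes. A change of sign counted as reversed only for a gene called in the main fit or under that setting. With a mouse left out, only a call in the main fit counted. Sign changes of uncalled genes are thus not in the 9, and most named genes against Prg4-gated cells were uncalled. Of 6706 checks of named results, 284 kept the direction but lost the call. With 1 mouse left the fit has no residual degrees of freedom, so calls without a mouse were not counted.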
